A study of Mus musculus with 16 samples.

Results

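Levels of 10 genes used as markers of astrocytes and radial glia were followed across mouse cells labelled as midbrain dopaminergic neurons. The genes were Gfap, Gja1, Slc1a3, Slc1a2, Glul, Aldoc, Aldh1l1, Aqp4, S100b and Fabp7. They were chosen by symbol, 10 of the 19938 genes measured, and each was read from its brightest probe set over the 16 arrays among probe sets with 1 gene symbol. All 10 had such a probe set, and only Glul had a second one. All cells came from C57BL/6 x 129/Ola (mixed) mice with the genotype Pitx3GFP/+, in which the green fluorescent protein GFP marks cells that use the Pitx3 locus, a transcription factor gene of midbrain dopaminergic neurons. GFP-positive cells were sorted in all groups per the series' design text, while the sample labels state the sort for the primary cells only.

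There were 4 groups. Treated cells (5 biological replicates) were made from induced pluripotent stem cells (iPSCs) in culture with recombinant human WNT1 and DKK3. Control cells (5 biological replicates) were made from iPSCs without these proteins. Primary neurons came from the ventral midbrain of embryos at day E14.5 and at day E13.5, each with 3 arrays that the labels call technical replicates, so each stage counted as 1 sample. How many iPSC lines, cultures or pooled embryos stood behind the arrays is not given in the sources used, and p-values therefore reflect only the spread among these samples. Levels are log2 values after RMA, a method that corrects background, scales the arrays to 1 distribution and summarises the probes of a set, and a difference of 1 is a 2-fold change.

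Radial glia are the elongated stem cells of the embryonic brain, which give rise to neurons and later to astrocytes. Astrocytes clear glutamate and potassium around synapses, store fuel and couple to each other through gap junctions. In the midbrain, dopaminergic neurons arise from floor plate progenitors that share many radial glial genes, and most astrocyte genes come up only around and after birth. None of the 10 genes belongs to astrocytes alone. Gja1 is also known from fibroblasts and heart muscle, S100b from Schwann cells, Aqp4 from skeletal muscle, and Glul from many tissues.

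Promoters of 4 of the genes are shown because they stand for the ways in which the genes differed below. They are Gfap, which was higher in iPSC-derived cells than in primary neurons, Slc1a3 and Slc1a2, a pair of glutamate transporters that differed in opposite directions, and Fabp7, which did not pass the test. Each sequence holds the 250 bases before the start site, 5′ to 3′ in the direction of the gene, from RefSeq's promoter table of the build GRCm38.p6. Capitals mark matches to TGGGAA, the core letters bound by RBPJ, the DNA-binding partner of Notch, or to TTCNNNGAA, the pattern of STAT factors, on either strand. TGGGAA on the opposite strand reads TTCCCA.
Gfap (chr11:102897201-102897450, minus strand): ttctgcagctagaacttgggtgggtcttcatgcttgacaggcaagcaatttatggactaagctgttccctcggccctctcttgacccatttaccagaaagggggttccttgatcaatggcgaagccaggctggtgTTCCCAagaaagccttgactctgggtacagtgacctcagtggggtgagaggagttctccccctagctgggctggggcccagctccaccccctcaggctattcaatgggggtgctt
Slc1a3 (chr15:8710808-8711057, minus strand): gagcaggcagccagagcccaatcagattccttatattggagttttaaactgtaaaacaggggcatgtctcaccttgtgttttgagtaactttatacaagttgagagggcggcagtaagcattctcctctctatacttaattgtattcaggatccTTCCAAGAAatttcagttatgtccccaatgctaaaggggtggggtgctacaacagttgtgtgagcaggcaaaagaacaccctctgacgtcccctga
Slc1a2 (chr2:102706188-102706437, plus strand): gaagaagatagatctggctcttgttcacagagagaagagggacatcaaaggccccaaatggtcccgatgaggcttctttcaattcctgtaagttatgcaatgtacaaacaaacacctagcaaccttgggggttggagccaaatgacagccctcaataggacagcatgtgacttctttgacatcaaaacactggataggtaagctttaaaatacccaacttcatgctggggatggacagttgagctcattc
Fabp7 (chr10:57784673-57784922, plus strand): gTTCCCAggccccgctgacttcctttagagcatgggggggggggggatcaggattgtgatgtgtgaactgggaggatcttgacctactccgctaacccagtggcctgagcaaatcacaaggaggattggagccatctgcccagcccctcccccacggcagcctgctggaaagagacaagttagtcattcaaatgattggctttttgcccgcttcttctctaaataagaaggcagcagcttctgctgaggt

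RefSeq's table held a promoter for 9 of the 10 genes, and 10 promoters in all, because Aldoc has 2 start sites. TGGGAA was found in 6 of these 10, of Gfap, Aldoc at both start sites, Aldh1l1, S100b and Fabp7, and in 21.6% of all 32851 promoters of this length. TTCNNNGAA was found in the promoters of Slc1a3 and of Aldoc at 1 start site, and in 7.02% of all promoters. TTGGCA, letters bound by nuclear factor I, was found in those of S100b and of Aldoc at the other start site, and in 12.3% of all. None of these matches overlapped another. A match describes letters only, and binding was not measured here.

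The labelled cell type was checked before the comparisons. Th, the gene of the dopamine-making enzyme tyrosine hydroxylase, was at 11.16 to 11.53 on E14.5 and 10.52 to 11.48 on E13.5 arrays. On treated and control arrays numbered 1 to 4 it was at 5.29 to 6.17. The arrays numbered 5 stood apart, with Th at 9.22 on the treated and 8.52 on the control array. The mean level of 16 neuron genes was 6.11 to 6.57 on the 8 iPSC-derived arrays numbered 1 to 4, 8.20 on treated array 5 and 7.87 on control array 5, against 10.10 to 10.48 in primary neurons. Nanog, a pluripotency gene, was at 8.42 to 10.14 on those 8 arrays, against 6.40 on treated and 6.42 on control array 5. Most iPSC-derived arrays therefore carried low levels of the genes that define their label, and results are given with and without the arrays numbered 5 where these change them. Medians of all probe sets lay between 5.85 and 6.02 on the 16 arrays. The median SD over genes was 0.195 in treated and 0.189 in control cells, against 0.215 and 0.228 between the technical arrays of E14.5 and E13.5.

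**Figure D1:**
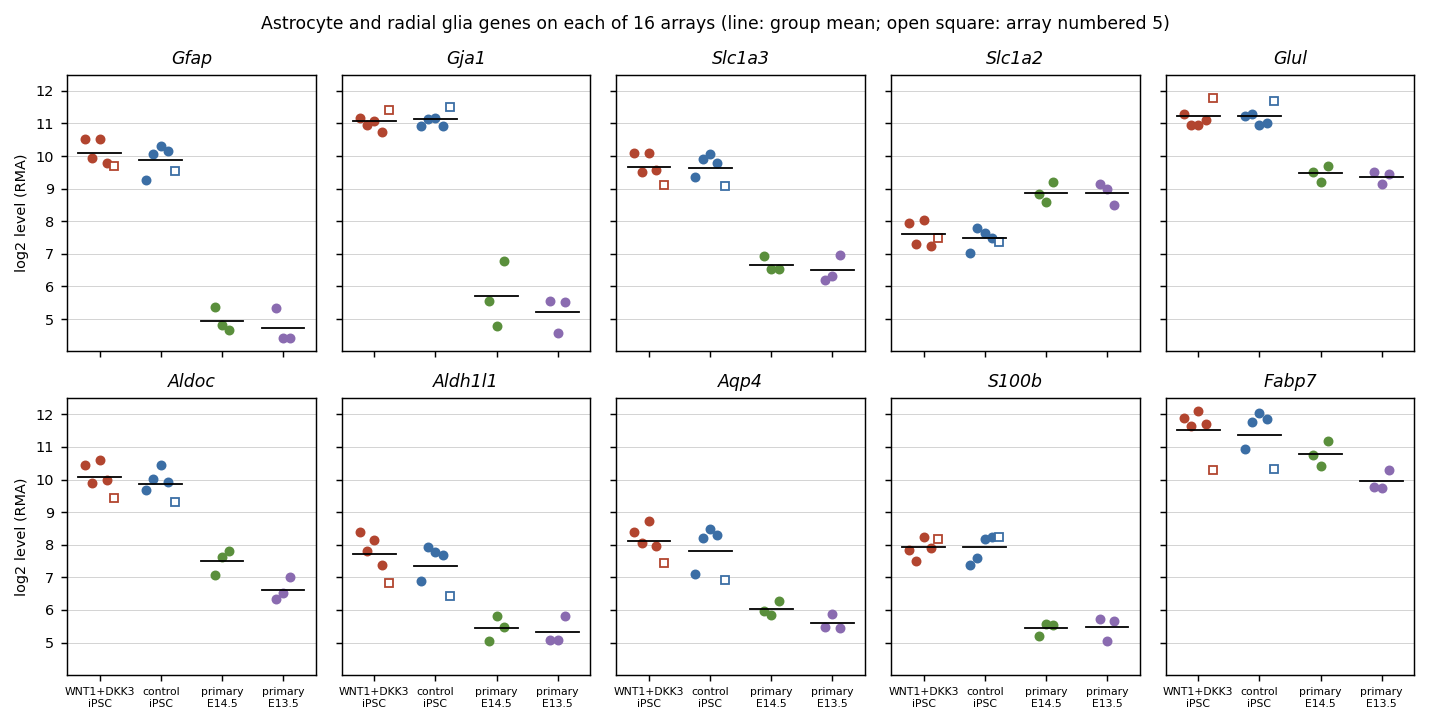
Log2 RMA level (vertical axis) of each of the 10 genes on the 16 arrays, by group. Points are arrays, open squares the arrays numbered 5 and lines group means. Gfap and Gja1 lie at 9.26 or above on all iPSC-derived arrays and at 6.77 or below on all primary arrays, and Slc1a2 alone lies lower on the iPSC-derived arrays.

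Treated and control cells differed from primary neurons in the same direction for the same 9 of the 10 genes. Gfap, Gja1, Slc1a3, Glul, Aldoc, Aldh1l1, Aqp4 and S100b were higher, and Slc1a2 was lower. Fabp7 did not pass the threshold of 0.05 on limma's adjusted p. The 8 genes higher in treated cells stand beside 19.9% of all genes, and the 1 lower gene beside 21.3%. For control cells these shares were 19.3% and 22.5%. Both comparisons share the same 2 primary samples, so the second is no separate support for the first. The median difference of the 10 genes was 2.40 in treated and 2.23 in control cells, beside medians of -0.09 and -0.11 over all genes. In RNA from whole samples, fewer cells of a type and less RNA per cell cannot be told apart. Nor can the source of the cells, culture against embryo, be told apart from any difference in how the primary samples were handled.

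The same 8 genes were also at higher levels on all 10 iPSC-derived arrays than on any of the 6 primary arrays, and Slc1a2 was at lower levels on all 10. Over all genes, 14.1% and 12.7% had arrays that separate in this way. The arrays' scaling bears on the balance over all genes. Medians over the 19938 genes, unlike those over all probe sets, lay at 6.37 to 6.44 on iPSC-derived and 6.17 to 6.25 on primary arrays. With each array centred on its median over these genes, differences from primary neurons moved down by 0.21 in treated and 0.19 in control cells. The calls over all genes then changed to 3059 higher and 8787 lower in treated cells, in place of 3960 and 4241. In control cells they changed to 3046 and 8833, in place of 3855 and 4491. The 10 genes kept 8 higher and 1 lower in both comparisons.

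Gfap encodes the glial fibrillary acidic protein, the intermediate filament of mature and reactive astrocytes. Its level was 10.53, 9.94, 10.52, 9.79 and 9.71 on treated arrays 1 to 5 and 9.26, 10.08, 10.31, 10.14 and 9.54 on control arrays 1 to 5. On E14.5 arrays it was 5.37, 4.82 and 4.66, and on E13.5 arrays 5.34, 4.41 and 4.43. Every primary array thus had Gfap below the median of its probe sets, and the lowest iPSC-derived array was nearly 4 log2 units above the highest primary one. The difference from primary neurons was 5.26 in treated (SE 0.30, adjusted p = 8.8e-08) and 5.03 in control cells (SE 0.30, adjusted p = 1.3e-07). The values came with no detection call. Whether primary neurons held any Gfap RNA cannot be read from them, so these sizes are set against levels that may be background and are not given as folds.

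Gja1 encodes a connexin, the main gap junction protein of astrocytes. Treated arrays were at 11.17, 10.96, 11.07, 10.73 and 11.41 and control arrays at 10.93, 11.15, 11.16, 10.91 and 11.49. Primary levels spread more, with 5.54, 4.79 and 6.77 on E14.5 and 5.56, 4.57 and 5.51 on E13.5 arrays. The iPSC-derived arrays therefore lay within 1 log2 unit of each other, while E14.5 technical arrays 2 and 3 lay almost 2 units apart. The difference from primary neurons was 5.61 in treated (SE 0.20, adjusted p = 2.4e-09) and 5.67 in control cells (SE 0.20, adjusted p = 2.1e-09). Of the 6 primary arrays, 5 had Gja1 below the median of their probe sets, with no detection call, so these sizes are open to the same limit as those of Gfap.

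The 2 glial glutamate transporters went opposite ways. Slc1a3 encodes GLAST, the transporter of radial glia and of astrocytes from early stages on. It was at 10.10, 9.51, 10.08, 9.56 and 9.11 on treated and at 9.37, 9.92, 10.07, 9.79 and 9.07 on control arrays. E14.5 arrays were at 6.94, 6.54 and 6.53, and E13.5 arrays at 6.21, 6.32 and 6.95. All iPSC-derived arrays were thus more than 2 log2 units above all primary arrays. The difference was 3.09 in treated (SE 0.30, 8.51-fold, adjusted p = 5.5e-06) and 3.06 in control cells (SE 0.30, 8.34-fold, adjusted p = 5.8e-06).

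Slc1a2 encodes GLT-1, the main glutamate transporter of mature astrocytes, which in rodents is also described in some neurons. Its level was 7.94, 7.31, 8.03, 7.25 and 7.50 on treated and 7.03, 7.80, 7.65, 7.49 and 7.38 on control arrays. Primary neurons were higher, at 8.83, 8.58 and 9.21 on E14.5 and at 9.14, 8.99 and 8.50 on E13.5 arrays. The groups did not overlap, and the nearest arrays were treated array 3 and E13.5 array 3. Slc1a2 was lower by 2.41-fold in treated (-1.27, SE 0.24, adjusted p = 0.00102) and by 2.65-fold in control cells (-1.40, SE 0.24, adjusted p = 0.000468).

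Glul encodes glutamine synthetase, the enzyme with which astrocytes turn glutamate into glutamine. It was at 11.30, 10.97, 10.95, 11.11 and 11.77 on treated and at 11.23, 11.29, 10.96, 11.01 and 11.70 on control arrays. E14.5 arrays were at 9.52, 9.19 and 9.69 and E13.5 arrays at 9.52, 9.14 and 9.45. Arrays numbered 5 had the highest level of either culture group. The difference from primary neurons was 1.80 in treated (SE 0.23, adjusted p = 5.3e-05) and 1.82 in control cells (SE 0.23, adjusted p = 4.9e-05). The second probe set of Glul gave the same direction, with 9.57 to 10.32 in treated and 9.61 to 10.51 in control cells, against 8.05 to 8.68 in primary neurons.

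Aldoc and Aldh1l1 encode metabolic enzymes that are widely used to mark astrocytes. Aldoc, aldolase C of glycolysis, was at 10.44, 9.90, 10.61, 9.999 and 9.45 on treated and at 9.67, 10.01, 10.45, 9.93 and 9.32 on control arrays. Its E14.5 arrays were at 7.06, 7.62 and 7.82 and its E13.5 arrays at 6.33, 6.54 and 7.01. Arrays of the 2 stages did not overlap, while all lay below the iPSC-derived arrays. Aldoc was higher by 3.02 in treated (SE 0.34, adjusted p = 2.3e-05) and by 2.81 in control cells (SE 0.34, adjusted p = 3.9e-05).

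Aldh1l1 encodes an enzyme of folate metabolism, 10-formyltetrahydrofolate dehydrogenase. Treated arrays were at 8.38, 7.81, 8.14, 7.37 and 6.82 and control arrays at 6.88, 7.93, 7.78, 7.69 and 6.44. E14.5 arrays were at 5.05, 5.80 and 5.48 and E13.5 arrays at 5.08, 5.10 and 5.83. Control array 5, the lowest iPSC-derived array, was still above the highest primary array, and all primary arrays were below the median of their probe sets. The difference was 2.32 in treated (SE 0.44, adjusted p = 0.00116) and 1.95 in control cells (SE 0.44, adjusted p = 0.00359), with the limit given for Gfap.

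Aqp4 encodes the water channel of astrocyte endfeet. Its level was 8.40, 8.07, 8.74, 7.96 and 7.44 on treated and 7.10, 8.19, 8.47, 8.31 and 6.92 on control arrays. Primary levels were 5.97, 5.84 and 6.27 on E14.5 and 5.48, 5.87 and 5.45 on E13.5 arrays. Control arrays 1 and 5 were more than 1 log2 unit below the other 3 control arrays. Aqp4 was higher by 2.31 in treated (SE 0.44, adjusted p = 0.00111) and by 1.99 in control cells (SE 0.44, adjusted p = 0.00303). All E13.5 arrays and E14.5 array 2 had Aqp4 below the median of their probe sets, so the limit given for Gfap bears on these sizes too.

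S100b encodes a calcium-binding protein of astrocytes and of several other glia. It was at 7.84, 7.51, 8.25, 7.90 and 8.17 on treated and at 7.38, 7.59, 8.19, 8.25 and 8.25 on control arrays. E14.5 arrays were at 5.21, 5.58 and 5.55 and E13.5 arrays at 5.74, 5.04 and 5.66. Every primary array was below the median of its probe sets, and every iPSC-derived array above. S100b was higher by 2.47 in treated (SE 0.26, adjusted p = 1.0e-05) and by 2.47 in control cells (SE 0.26, adjusted p = 1.0e-05), and the limit given for Gfap holds for these sizes too.

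Fabp7 encodes the brain fatty acid-binding protein, a classical gene of radial glia. It was at 11.88, 11.65, 12.11, 11.71 and 10.29 on treated and at 10.94, 11.77, 12.04, 11.84 and 10.31 on control arrays. Primary neurons were at 10.74, 10.42 and 11.18 on E14.5 and at 9.79, 9.74 and 10.29 on E13.5 arrays. The arrays numbered 5 lay within the primary range and the other 8 between 10.94 and 12.11. The difference was 1.17 in treated (95% interval 0.04 to 2.29, adjusted p = 0.0894) and 1.02 in control cells (-0.11 to 2.15, adjusted p = 0.129). Without the arrays numbered 5 it was 1.48 in treated (adjusted p = 0.00211) and 1.29 in control cells (adjusted p = 0.00494), past the threshold in both. Leaving out only the array of the group compared also brought it past the threshold, with adjusted p = 0.0153 in treated and 0.0420 in control cells. Against E13.5 alone the difference was 1.59 in treated and 1.44 in control cells, and against E14.5 alone 0.74 in treated and 0.60 in control cells, none of them past the threshold.

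**Figure D2:**
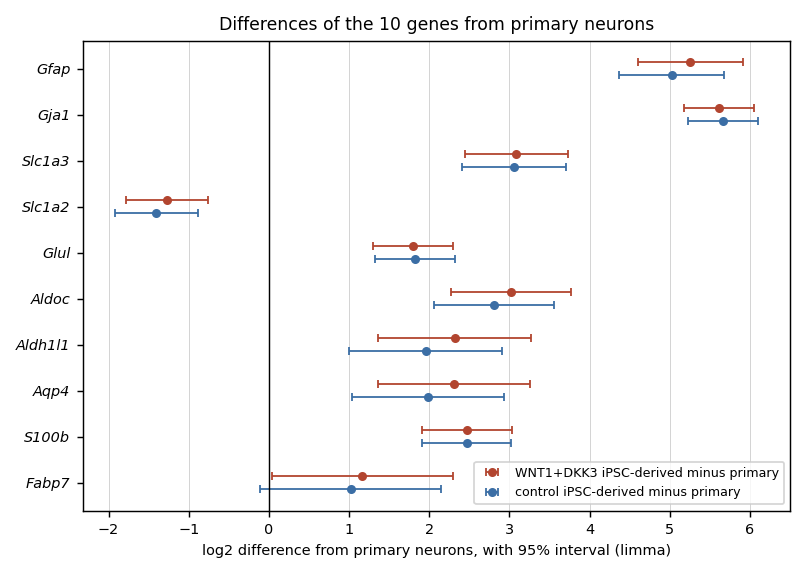
Difference of each gene from primary neurons (horizontal axis, log2), with limma's 95% interval, for treated cells (upper marks) and control cells (lower marks). Gfap and Gja1 lie above 5, Slc1a2 lies below 0, and the interval of Fabp7 reaches 0.04 in treated and -0.11 in control cells.

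WNT1 and DKK3 treatment gave no difference in any of the 10 genes that passed the threshold. None of the 10 was called, beside 0.0% of all genes, and 300 genes (1.5%) had an unadjusted p under 0.05 by limma. Differences of treated from control cells ranged between -0.06 for Gja1 and 0.36 for Aldh1l1, with SEs of 0.14 to 0.40 and an adjusted p of 1.0 for all 10. The sign was positive for 8 of them, beside a median difference of 0.017 over all genes. The share of all genes with a positive sign was not set beside this count. Between equally numbered arrays, 10, 0, 8, 2 and 7 of the genes were higher in treated cells for numbers 1 to 5. The count of signs is therefore no result about the 10 genes. Treated and control arrays overlapped for all 10, where 0.181% of all genes had every treated array above and 0.0953% every treated array below the control arrays.

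The intervals of the unpaired fit show what size of change it could have missed on these arrays. The 95% intervals of 7 genes stayed inside a 2-fold change in either direction. Gfap averaged 10.10 ± 0.40 in treated and 9.87 ± 0.45 in control cells (SD, n = 5 each), with an interval of -0.29 to 0.75. Aldh1l1, at 7.71 ± 0.62 in treated and 7.34 ± 0.65 in control cells, had an interval of -0.41 to 1.13, and Aqp4 one of -0.43 to 1.07. Fabp7 had the widest interval, -0.73 to 1.02. The intervals of Aldh1l1, Aqp4 and Fabp7 thus reached just past a 2-fold rise. Without the arrays numbered 5 their upper limits were 0.95 for Aldh1l1, 0.92 for Aqp4 and 0.68 for Fabp7, all short of it. A fit with the replicate number as a block gave narrower intervals, inside a 2-fold change. They ran from -0.13 to 0.86 for Aldh1l1, -0.13 to 0.77 for Aqp4 and -0.19 to 0.48 for Fabp7. Equal numbers were not shown to mark pairs.

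Single arrays moved these differences in both directions. Several were smaller without control array 1. This array was the lowest of the 5 control arrays for Gfap, Slc1a2 and S100b. Without it, the difference of treated from control cells was 0.08 for Gfap, in place of 0.23, 0.15 for Aqp4, in place of 0.32, and 0.02 for Slc1a2, in place of 0.13. Slc1a3 was then at -0.04 and S100b at -0.13. Without control array 5, Aldh1l1 differed by 0.14, Aqp4 by 0.10, Aldoc by 0.06 and Fabp7 by -0.12. Without treated array 5 the same genes were further apart, at 0.585 for Aldh1l1, 0.49 for Aqp4, 0.36 for Aldoc and 0.46 for Fabp7. None of these values was past the threshold with or without an array.

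The group means of Gfap, Aqp4, Aldh1l1, Aldoc, Slc1a3 and Fabp7 ran in the same order, with treated cells highest, then control cells, E14.5 and E13.5. S100b had the same order of treated and control cells, with E13.5 at 5.48 just above E14.5 at 5.44. Gja1 and Glul had control cells above treated cells by less than their SD, and then E14.5 above E13.5. Slc1a2 ran the other way, with E13.5 and E14.5 at 8.88 and 8.87, above treated and control cells. Treated and control cells were neighbours in the order of every gene and differed by less than the SD of either group for each.

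E14.5 and E13.5 primary neurons were described as 1 sample each, untested. Genes were called different if the stage means lay 1 log2 unit or more apart and no arrays of the stages overlapped, which held for none of the 10 genes and for 0.241% of all genes. Aldoc and Fabp7 came nearest. Aldoc averaged 7.50 at E14.5 and 6.62 at E13.5, a difference of 0.88, and Fabp7 10.78 and 9.94, a difference of 0.84. With a limit of 0.5 in place of 1, these 2 genes met the rule, but so did 301 genes higher and 225 lower over all, in place of 35 and 13. Their arrays did not overlap between the stages, as was so for 4.75% of all genes in the same direction. The other 8 genes overlapped, with differences between -0.04 for S100b and 0.49 for Gja1.

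Of 27 further astrocyte genes, 2 met the same rule as higher at E14.5. Ndrg2, a gene of mature and maturing astrocytes, averaged 8.55 at E14.5 and 7.09 at E13.5. Sparcl1, which encodes a secreted matrix protein, averaged 8.49 at E14.5 and 7.49 at E13.5, which is at the limit of the rule with a difference of 1.0. None of the 27 was lower. Gli3, a transcription factor of the Hedgehog pathway, was the 1 of 23 radial glia genes that met the rule, at 5.58 at E14.5 and 6.94 at E13.5. Its E14.5 mean was below the medians of the probe sets on the E14.5 arrays, so the limit given for Gfap holds for this difference. Of 11 microglia genes, 8 had a higher mean at E14.5, as had 8 of the 10 genes and 16 of the 27 further astrocyte genes. The median stage difference over all genes was -0.007. The share of all genes with a higher mean at E14.5 was not set beside these counts. C1qc, which encodes a chain of complement C1q, met the rule with 7.02 at E14.5 and 6.01 at E13.5. The median stage difference was 0.29 for the microglia genes, 0.20 for the 10 genes and 0.11 for the 27 further astrocyte genes, and the part of microglia in these values was not tested.

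The 10 genes did not vary together on all iPSC-derived arrays. On the arrays numbered 5, Aldh1l1, Aldoc, Slc1a3 and Fabp7 were below all of the other 8 iPSC-derived arrays, while Gja1 and Glul were above all of them. Over all genes, 11.7% lay below and 11.5% above in this way. Fabp7 was furthest below, at 10.29 on treated and 10.31 on control array 5, against a lowest value of 10.94 on the other 8 arrays. Glul was at 11.77 and 11.70 there, against a highest value of 11.30. These arrays are the ones with high Th and low Nanog given above, and the part of their other differences in these values was not tested.

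**Figure D3:**
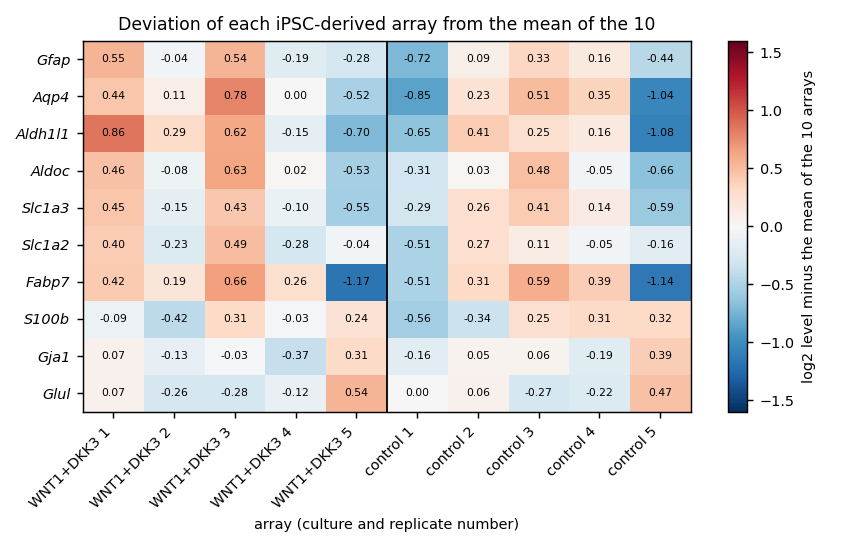
Level of each gene on each iPSC-derived array minus its mean over the 10 iPSC-derived arrays (log2), with treated arrays left and control arrays right of the line. Array 3 of both groups is high for most genes, the arrays numbered 5 are low for Fabp7, Aldh1l1, Aqp4, Slc1a3 and Aldoc and high for Glul and Gja1, and control array 1 is low for most genes.

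On the 8 arrays numbered 1 to 4, Pearson's r over all 45 pairs of the 10 genes lay between -0.57 and 0.99, with a median of 0.77 and 38 above 0. The 7 genes that went up and down together were grouped after these values were seen. For Gfap, Aqp4, Aldh1l1, Aldoc, Slc1a2, Slc1a3 and Fabp7, r was between 0.77 and 0.99 in all 21 pairs, with a median of 0.87, and with all 10 arrays the lowest was 0.51. The highest was between Aqp4 and Fabp7, and r was 0.95 between the 2 glutamate transporters, although they differed from primary neurons in opposite directions. Over the 8 arrays S100b had r between 0.41 and 0.79 and Gja1 between 0.40 and 0.76 with these 7 genes, while over the 10 arrays Gja1 had r between -0.60 and 0.29 with them. Glul stood apart, with r over the 8 arrays between -0.57 and 0.20 in its 9 pairs. These correlations describe 8 arrays that mix treated and control cells and share an array type and an amplification, and genes on 1 array share its RNA. Correlations between other pairs of genes were not set beside them.

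The genes of the whole array with the most similar pattern were found by the lower of r over the 10 and over the 8 iPSC-derived arrays. Gfap was most like Itgb8 (0.97), Lrig1 (0.95) and Ttyh1 (0.95), and Aqp4 most like Ttyh1 (0.95), Bmpr1b (0.93) and Rfx4 (0.93). Fabp7 was most like Dip2b (0.94), Pea15a (0.93) and Rfx4 (0.92). Ttyh1 and Rfx4 each came up for 2 of the genes, and both stand in the list of radial glia genes used below. The highest of many correlations over few arrays are high by selection, and values for other genes were not set beside them. A shared programme was not tested.

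Enzyme and transporter genes had their own nearest patterns. Slc1a3 was most like Fzd3 (0.97), Ckb (0.96) and Phlpp1 (0.96), and Aldoc most like Gdpd2 (0.97), Dhrs1 (0.97) and Ckb (0.95). Aldh1l1 was most like Sparcl1 (0.96), Gpm6b (0.96) and Asrgl1 (0.94). Slc1a2 was most like Timp2 (0.94), Chn2 (0.93) and Sfxn5 (0.92). Ckb, the brain form of creatine kinase, was thus shared by Slc1a3 and Aldoc. Gja1 was most like Tcf4 (0.98), Add3 (0.98) and Antxr1 (0.95). Glul was most like Psd2 (0.95), Gm9881 (0.95) and Kif5c (0.94), and S100b like Tbc1d4 (0.93), Nnat (0.92) and Elmod2 (0.90). None of the nearest genes of Gja1, Glul or S100b was shared with another of the 10.

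Other astrocyte genes were higher in the iPSC-derived cells as well. The limit given for Gfap bears on each list gene whose primary levels lay below the median of the probe sets. Counts of this list and of those below stand beside shares over all genes. These were 19.9% higher and 21.3% lower in treated and 19.3% higher and 22.5% lower in control cells. Of 27 further astrocyte genes measured, 17 were higher and 3 lower in treated cells and 16 were higher and 3 lower in control cells, each against primary neurons. The median difference was 1.37 in treated and 1.35 in control cells. Clu, which encodes the secreted chaperone clusterin, was higher by 4.16 in treated and 4.09 in control cells, and Apoe, a lipid carrier, by 4.05 and 4.03. Sparcl1 was higher by 3.77 and 3.64. The 3 lower genes, named after their values were seen, were Nfib (-1.14 in treated and -1.03 in control cells), Acsl6 (-0.71 and -0.67) and Slc7a10 (-0.45 and -0.51). Nfib encodes a nuclear factor I protein with roles in gliogenesis.

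Radial glia and neural progenitor genes were higher too. Of 23 measured, 16 were higher and 1 lower in both treated and control cells, with medians of 1.27 and 1.08. The endothelin receptor gene Ednrb was higher by 3.48 in treated and 3.36 in control cells, Notch2 by 3.06 and 3.14, and Hes1, a target of Notch, by 2.63 and 2.56. The lower gene was Msi1 (-1.87 and -1.90), an RNA-binding protein gene of neural progenitors, named after its values were seen. Without the arrays numbered 5, 20 further astrocyte genes were higher in treated and 17 in control cells, and 18 radial glia genes in each. Higher calls over all genes rose as well, to 4565 in treated and 4489 in control cells, in place of 3960 and 3855.

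Genes listed for progenitors of the region itself did not follow. Of 11 floor plate and ventral midbrain progenitor genes, 8 were lower and 1 higher in both treated and control cells, with medians of -1.28 and -1.23. Foxa1, a floor plate transcription factor, was lower (-3.19 in treated and -3.36 in control cells), as were Foxa2 (-2.67 and -2.80) and Lmx1b (-2.25 and -2.34). Foxa2 and Lmx1b also stand in the list of dopaminergic neuron genes used below. In the primary neurons Foxa1 averaged 9.93 at E14.5 and 10.29 at E13.5. The lower levels of these genes are therefore no separate readout of progenitors. The higher gene was Msx1 (1.89 and 1.96), named after its values were seen.

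The gene families of the 10 did not move as wholes. Over all genes, 19.9% were higher and 21.3% lower in treated and 19.3% and 22.5% in control cells. The counts of higher connexin, aquaporin and fatty acid-binding protein genes below lay near these shares and are no result about the families. Among 15 genes of glutamate and glutamine handling, 5 were higher and 3 lower in treated and 4 higher and 2 lower in control cells. They included the cystine and glutamate exchanger gene Slc7a11 (1.95 in treated and 2.10 in control cells) and the glutamine transporter gene Slc38a3 (1.57 and 1.44). The neuronal glutamate transporter gene Slc1a1 was lower (-1.40 and -1.57), as Slc1a2 was. The others, named after their values were seen, were Slc1a5, Gclc and, in treated cells, Glud1, which were higher, and Slc38a2 and, in treated cells, Slc38a5, which were lower. Of 10 intermediate filament genes other than Gfap, 4 were higher and 3 lower in both groups. The lower ones were the neuronal filament genes Ina (-4.67 and -5.003), Nefm (-4.33 and -4.55) and Nefl (-2.64 and -2.56). The higher ones, named after their values were seen, were Vim (1.47 and 1.42), Des (1.24 and 1.02), Sync (0.83 and 0.74) and Nes (0.75 and 0.69).

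Among 15 connexin genes, Gja1 included, 4 were higher and 3 lower in treated and 4 higher and 4 lower in control cells. Gjb2, another connexin of astrocytes and of epithelia, was next to Gja1 with 3.34 in treated and 3.47 in control cells, and Gjd2, the connexin of neurons, was lower (-2.49 and -2.39). The other calls, named after their values were seen, were Gjb5, Gjc3 (treated cells) and Gjb6 (control cells), which were higher, and Gjb1, Gje1 and Gja3 (control cells), which were lower. Of 12 aquaporin genes, Aqp4 and Aqp1, the water channel of the choroid plexus, were higher in both groups. Aqp1 differed by 1.64 in treated and 1.30 in control cells, but its call was lost under some alternatives, with an adjusted p of up to 0.106 in treated and 0.200 in control cells. Aqp5 (-0.37, adjusted p up to 0.238) was lower in control cells, as was Aqp6 (-0.34), named after its values were seen. Of 10 fatty acid-binding protein genes, Fabp4 (2.68 and 3.00) and Fabp3 (1.54 and 1.76), known from fat cells and from heart, were higher in both groups, and Fabp7 was not called. Fabp12 was lower in control cells (-0.38). Aqp6 and Fabp12 were near the lower quartiles in all groups, at 4.10 and 4.03 in control cells. They were at 4.405 and 4.55 at E14.5 and at 4.47 and 4.27 at E13.5, so the limit given for Gje1 holds for their calls. The call of Fabp3 was lost under some alternatives in treated (adjusted p up to 0.160) and control cells (up to 0.101), and that of Fabp12 too (up to 0.260).

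Among the 4 measured aldolase and folate dehydrogenase genes, Aldoa, the aldolase of most tissues, was higher together with Aldoc and Aldh1l1, by 2.06 in treated and 1.99 in control cells. Aldh1l2, the mitochondrial form, was lower (-1.39 and -1.61), and was named after its values were seen. Of 15 S100 genes, 8 were higher and 1 lower in treated and 7 higher and none lower in control cells. The lower one was S100a5, named after its values were seen. S100a6 was higher by 6.58 and 6.59, S100a1 by 2.92 and 2.82 and S100a11 by 2.77 and 2.82, beside 2.47 for S100b. S100a6 averaged 5.025 at E14.5 and 5.42 at E13.5, and S100a1 5.59 and 5.87. Like those of S100b, these means lay below the medians of the probe sets on the primary arrays. The limit given for Gfap holds for these sizes, which are therefore not ranked.

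Markers of other cell types moved with the 10 genes in the comparison with primary neurons. All 20 fibroblast and mesenchyme genes were higher in treated and in control cells, with medians of 2.43 and 2.62, among them Dcn (5.48 and 5.68) and Postn (4.96 and 5.16). Their mean level was 8.24 to 9.27 in treated and 8.37 to 9.31 in control cells, against 5.72 to 6.00 in primary neurons. Of 12 epithelial and endoderm genes, 7 were higher in both groups, Krt18 by 5.53 and 5.68, and their mean level was 7.20 to 8.92 in treated and 7.46 to 8.90 in control cells, against 5.66 to 5.95. Of 12 ependymal and choroid plexus genes, 10 were higher and 1 lower in both groups, with Ttr, the transthyretin gene, higher by 6.78 and 6.67. The lower one was Otx2, named after its values were seen. Their part in the levels of the 10 genes was not tested.

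Pluripotency genes had a mean level of 5.59 to 8.56 in treated and 5.66 to 8.01 in control cells, against 5.66 to 6.07 in primary neurons. None of the 12 was called higher with all arrays, and Klf4 was lower in control cells (-0.71), a call lost under some alternatives (adjusted p up to 0.196). Without the arrays numbered 5, 9 were higher in treated and 8 in control cells, where 4565 and 4489 of all genes were higher, in place of 3960 and 3855. All 16 neuron genes and all 12 dopaminergic neuron genes were lower in treated and in control cells.

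The remaining lists were mixed, beside 19.9% of all genes higher and 21.3% lower in treated and 19.3% and 22.5% in control cells. The counts of higher oligodendrocyte lineage genes and of higher endothelial and pericyte genes lay near these shares. Of 15 oligodendrocyte lineage genes, 3 were higher and 3 lower in treated and 3 higher and 2 lower in control cells, with medians of -0.05 and -0.04. Pdgfra (2.79 and 2.95), which fibroblasts also express, Cnp (1.47 and 1.24) and Mbp (1.08 and 1.07) were the higher ones, and Mog, Nkx2-2 and, in treated cells, Opalin, named after their values were seen, the lower ones. Opalin averaged 4.265 at E14.5 and 4.03 at E13.5, below the lower quartiles of those arrays, so the limit given for Gje1 holds for its call. Of 10 Schwann and neural crest genes, Pmp22 (3.77 and 3.73), Erbb3 (2.12 and 2.13) and Egr2 (1.14 and 1.04) were higher and none lower in either group. The calls of Erbb3 and Egr2 were lost under some alternatives, with adjusted p up to 0.0617 and 0.252 in treated and up to 0.0607 and 0.308 in control cells. Of 11 microglia genes, 6 were lower and only Csf1r (2.07 and 2.21) higher in both groups, a call lost under some alternatives (adjusted p up to 0.198 and 0.164). Of 11 endothelial and pericyte genes, Cdh5 (3.11 and 3.27) and Kdr (1.82 and 1.75, adjusted p up to 0.0615 and 0.0714 under alternatives) were higher in both groups. Rgs5 and Cldn5, the second named after its values were seen, were lower. Of 12 muscle genes, 6 were higher in treated and 4 in control cells and none lower, with Mylpf at 1.82 and 1.38.

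**Figure D4:**
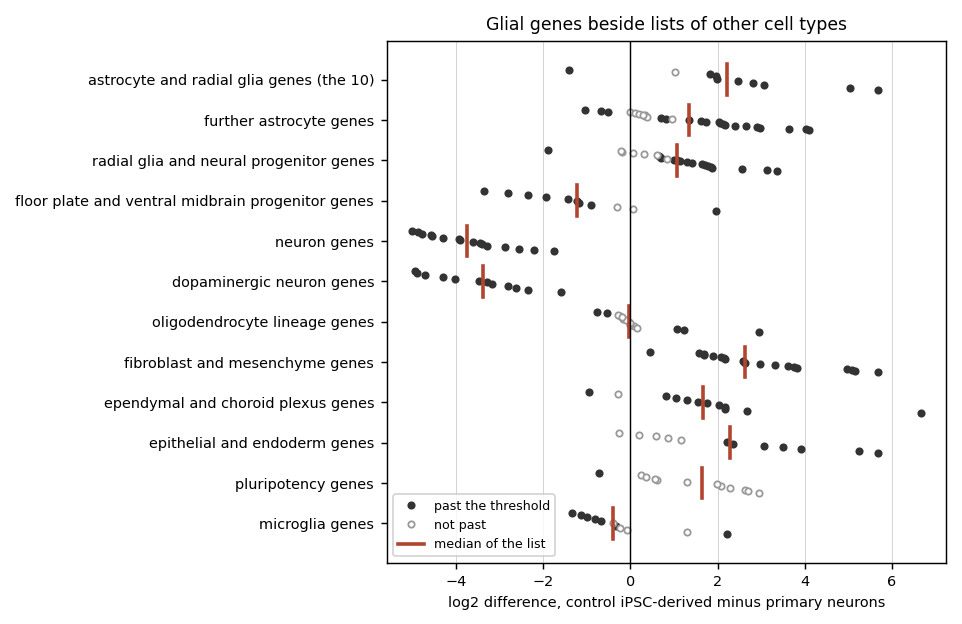
Difference of control cells from primary neurons (horizontal axis, log2) for each measured gene of the 10 and of 11 other lists. Filled points passed limma's threshold, open points did not, and red bars are list medians, 2.23 for the 10 genes, 2.62 for fibroblast and mesenchyme genes and -3.76 for neuron genes.

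Between treated and control cells, none of the genes of these lists passed the threshold, so that no list differed in its count. Median differences were 0.14 for the 10 genes, 0.06 for the further astrocyte genes and 0.06 for the radial glia genes, beside 0.02 over all genes. The mean level of the 10 genes was 9.17 to 9.85 in treated and 8.98 to 9.71 in control cells, against 6.92 to 7.32 at E14.5 and 6.57 to 6.91 at E13.5.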

How the data were processed

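Gene expression was measured on 16 Affymetrix arrays. The authors deposited log2 values of 35556 probe sets, and RMA and Affymetrix Expression Console 1.2 are named in the submitters' processing notes, which do not say whether all arrays were processed together. The labels' protocols name RNeasy kits for extraction and the Ovation PicoSL kit, which amplifies small amounts of RNA, for labelling. Amplification can add spread between arrays, and scaled levels do not show changes in total RNA per cell. The number of arrays limits the precision.

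Of the probe sets, 21789 had 1 gene symbol in the platform's table, 1621 had several and were not used, and 12146 were not listed there. Symbols were updated through a RefSeq gene table of GRCm38.p6. The brightest probe set per gene left 19938 genes. No 2 arrays were identical.

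Tests were two-sided and ran over all genes in limma (version 3.58.1, R 4.3.3) by lmFit and eBayes, and p-values were adjusted after Benjamini and Hochberg and called under 0.05. The 10 iPSC-derived arrays entered treated against control, with 8 residual degrees of freedom. For the comparisons with primary neurons, 12 samples in 3 groups shared 1 estimate of the spread, the technical arrays of a stage being averaged to 1 of 2 primary samples, with 9 residual degrees of freedom. The pipeline was tested on simulated data.

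The 10 genes, the 21 other lists (277 measured genes with the 10) and the alternatives, the arrays numbered 5 among them, were chosen with earlier results of these data known. Named besides the 10 are up to 3 genes per list with the largest difference past the threshold, the 3 genes most like each of the 10, and Th, Nanog and Col1a1. Others are marked as named after their values were seen. Col1a1 was at 9.05 to 10.36 in treated and 9.00 to 10.32 in control cells, against 6.63 to 7.16 in primary neurons. In treated against control no list gene passed, and list genes are given there as counts. Alternatives were the prior of the spread, the scaling, a filter on the dimmest 25% of genes, the mean of probe sets, the samples in the fit, a replicate block, the primary samples used and leaving out each replicate.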

Additional observations from a re-analysis of the deposited data

Results flagged for a closer look

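In 26 sets of 5 arrays, the treated and the control arrays of each of the 10 genes and of Th, Nanog and Col1a1, an array was flagged where it lay further from the rest than Dixon's limit for 5 samples (0.71 of the range). Chance flags about 1 in 20 sets, and 4 were flagged, each for an array numbered 5. Among the sets of the 10 genes, only Fabp7 in treated cells was flagged, which is no more than chance would give. The other flags were of Th and Nanog, already described above as standing apart on these arrays, and are no separate support. Fabp7 on treated array 5 was at 10.287, against 11.65 to 12.11 on the other treated arrays. Th on treated array 5 was at 9.218, against 5.29 to 5.93 on the others, and on control array 5 at 8.517, against 5.34 to 6.17. Nanog on control array 5 was at 6.418, against 8.52 to 9.32 on the other control arrays. Fabp7 on control array 5, at 10.31, was the lowest of its group but was not flagged, with control array 1 at 10.94. How these differences relate to each other was not tested.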

How the results depend on the processing

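Against primary neurons, 8 or 9 of the 10 genes were higher and 1 was lower under each of 15 alternatives in treated and in control cells. The ninth was Fabp7, past the threshold without the arrays numbered 5, without replicate 5 of the group compared, and with the 6 primary arrays as samples and stage as a random block. That last setting takes technical arrays as samples (consensus correlation -0.0476), and over all genes it called 5053 higher and 5595 lower in treated and 4990 and 5961 in control cells. The genes lower over all 19938 numbered 4241 in treated and 4491 in control cells, but 2722 and 2847 against E13.5 alone and 2622 and 2743 against E14.5 alone. With the filter on the dimmest genes, the lower genes numbered 3130 in treated and 3297 in control cells. The higher genes then numbered 3959 in treated and 3860 in control cells, in place of 3960 and 3855. The shares of lower genes given over all genes include the dimmest genes. Treated against control had 0 of the 10 genes called under all 17 alternatives. Signs of differences that were never called turned for S100b with arrays centred on their medians (-0.014 in place of 0.004). With each replicate left out in turn they ranged between -0.121 and 0.456 for Fabp7, -0.143 and 0.032 for Gja1, -0.155 and 0.097 for Glul, -0.134 and 0.110 for S100b and -0.114 and 0.171 for Slc1a3. Between E14.5 and E13.5, 2 of the 10 genes were higher with a difference of at least 0.5, and 0 to 2 with each array left out in turn (2 without E13.5 array 3, 1 without E14.5 array 1 or 2), against 0 with all arrays. Over all genes the same settings gave 301 higher and 225 lower at 0.5, and 49 to 70 higher and 19 to 38 lower with an array left out, against 35 and 13. Of the list genes picked by the naming rule, 8 in treated and 11 in control cells lost their call under at least 1 alternative, in 19 and 35 values. Csf1r, Egr2, Erbb3, Kdr, Aqp1, Fabp3 and Tnnc1 did so in both groups, C1qb in treated cells, and Aqp5, Fabp12, Klf4 and C1qc in control cells. Nanog and Sall4 gained theirs in treated cells, in 10 values.

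Equal replicate numbers were not shown to pair the arrays. Between equally numbered arrays of the 2 culture groups, deviations from the group means correlated at 0.045, 0.52, 0.435, 0.718 and 0.798, and 3 of 5 treated and 4 of 5 control arrays were best matched by their own number. With the replicate number as a block, none of the 10 genes was called and 1 gene of all was, against 0. With it as a random block against primary neurons, 8 genes were higher and 1 lower, with Fabp7 at an adjusted p of 0.0620 in treated and 0.0950 in control cells. Amplified RNA, 2 primary samples and the lack of detection calls limit the comparisons.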
